A study of Hordeum vulgare with 32 samples.

Results

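The transcripts described here lie in a stretch of barley chromosome 3 on the PopSeq genetic map that holds VRS4. They were chosen by place: every row of the deposited table on chromosome 3 with a map position from 30 to 55, which left 1080 of 30174 transcripts after 2 rows were left out by name. Those 2 are AK373051, the LOB-domain row taken as VRS4 at position 39.38, and MLOC_74343.2, a retrotransposon-like row at 46.88. The rule itself uses no expression level, but it was set with earlier results of these data known. All 30174 listed transcripts reached at least 1 TPM in at least 3 libraries. The chosen transcripts sit at 74 distinct positions between 35.13 and 54.82, and none lies below 35. The unit of the map positions is not named in the table, so they are given as map units.

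Total RNA came from main shoot apices of barley (Hordeum vulgare) in 32 libraries of 5 lines at Waddington stages W5.5 and W3.5, a scale of how far the young spike has developed. The lines vrs4.k (stock GSHO 1986), int-a.1 (2055), vrs1 (1907) and int-c.5 (2003) are introgression lines in cv. Bowman, with 3 libraries per line and stage. Bowman, the parent that all 4 lines share as their background, had 4 libraries per stage. No plant was treated, and all grew in days of 16 h at 22 °C and nights of 8 h at 18 °C, per the labels. The sample labels call the later stage 5.5, whereas the series text and the table's headers give W5.0. Each line is 1 stock, so its named allele and any other donor DNA in the stock cannot be told apart.

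VRS4 encodes a LOB-domain transcription factor, related to RAMOSA2 of maize, that restrains the side spikelets of the barley spike, and its loss lets them set grain. An introgression line is made by crossing a donor allele repeatedly into a recurrent parent. Such a line can keep donor DNA on either side of the selected locus, where neighbouring genes are inherited together with it.

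The transcripts are unevenly spread over the map positions. These positions are genetic, so the counts do not give genes per length of DNA. Position 51.77 alone holds 144 of the transcripts, position 51.63 holds 91 and position 51.56 holds 67, whereas the 2.5 units from 40 hold 4. High-confidence gene models make up 572 of the 1080 (53%), and 508 (47%) are low-confidence models, which may be fragments of genes. The high-confidence share was 59.1% on the rest of chromosome 3 and 54.4% on the other chromosomes. It was 44.8% in the whole table, which includes 12925 transcripts without a map position. An informative match to a named gene was given for 642. Of the 706 with a rice match, 543 (76.9%) matched rice chromosome 1, as did 717 of 1000 (71.7%) on the rest of chromosome 3 and 417 of 10012 (4.17%) on the other 6 chromosomes. The median level of the interval's transcripts was 10.8 TPM (a transcript level scaled for its length and for the library), against 10.1 TPM on the rest of chromosome 3, 10.9 TPM on the other chromosomes and 9.81 TPM for all transcripts. Its most abundant transcripts were the ribosomal protein gene MLOC_56911.1 (60S L37a), at 2944 ± 313 TPM in vrs4.k and 2737 ± 425 TPM in Bowman (SD, n = 6 and 8 libraries over both stages), and MLOC_57344.1 (60S L18a), at 1347 ± 53 TPM in vrs4.k and 1266 ± 88 TPM in Bowman. Neither passed the test described below (adjusted p = 0.664 and 0.614).

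The transcripts at the edges of the choice are described without a test. Just inside the lower edge, MLOC_59964.1 (a TSC13-like enzyme of fatty acid elongation, at 35.13) averaged 51.8 TPM in vrs4.k and 50.1 TPM in Bowman, and MLOC_10457.2 (triosephosphate isomerase of glycolysis, at 36.90) averaged 412.9 TPM in vrs4.k and 418.9 TPM in Bowman. Just outside it, at 25.50, the PIF1 helicase-like MLOC_81928.1 averaged 88.8 TPM in vrs4.k and 102.1 TPM in Bowman. Just inside the upper edge, at 54.82, MLOC_20832.1 averaged 13.1 TPM in vrs4.k and 13.2 TPM in Bowman. Just outside it, at 55.10, AK359699 (SEC3A, an exocyst subunit) averaged 7.12 TPM in vrs4.k and 7.36 TPM in Bowman.

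Values are labelled raw counts in the table, but they carry decimals and every library sums to about the same total, as TPM do. Library totals ran from 980945 to 987728 TPM, and since TPM keeps no depth, the number of reads behind each library is unknown. The labelled tissue was checked by markers: 13 KNOX transcripts, which mark the meristem, summed to between 158 and 246 TPM in every library, and none of them was at 0 throughout a group. The summed level of 25 leaf and green-tissue transcripts ran from 697 to 1017 TPM at W5.5 and 517 to 726 TPM at W3.5 in vrs4.k, against 615 to 916 TPM at W5.5 and 523 to 887 TPM at W3.5 in Bowman. That of 43 floral MADS-box transcripts ran from 1255 to 1782 TPM at W5.5 and 762 to 1896 TPM at W3.5 in vrs4.k, against 1197 to 1702 TPM at W5.5 and 622 to 1309 TPM at W3.5 in Bowman. The ranges of vrs4.k and Bowman overlapped at each stage, and the part of these tissues in the results was not tested. Along the first principal component of all transcripts (24.2% of variance), 4 libraries lay beyond the median of the other stage. They are vrs4.k W3.5 replicate 2, int-c.5 W5.5 replicate 1, int-a.1 W3.5 replicate 1 and Bowman W3.5 replicate 4. Nothing in the labels says that libraries of a group came from separate plants or cultures, so the p-values measure only the spread between these libraries.

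In vrs4.k, 27 of the 1080 interval transcripts differed from Bowman over both stages (2.5%), of which 14 were higher and 13 lower. The 14 include MLOC_74342.12, described below, which reached 1 TPM through its vrs4.k libraries alone. A transcript is called where limma's moderated test on log2(TPM + 1), adjusted by the Benjamini-Hochberg method over all 30174 transcripts, gave an adjusted p below 0.05. The background was 1.54% of all transcripts, made up of 0.341% higher and 1.2% lower. On the rest of chromosome 3, 24 of 1370 were called (1.75%), and on the other chromosomes 167 of 14797 (1.13%). The interval's calls were split about evenly by direction, whereas those of the whole table were mostly lower in vrs4.k; under quantile normalization the interval's split was 21 higher and 9 lower. Without the 4 libraries that lay apart, 34 interval transcripts were called. With vrs4.k and Bowman alone in the fit, 17 were called, and without vrs4.k W5.5 replicate 1, 18. For counts under such alternative settings, here and below, the share over all transcripts is not given. One int-c.5 library (W3.5 replicate 1) is rounded to whole numbers in the table. In bulk tissue, fewer cells of a type and less RNA per cell cannot be told apart, for these and all later results.

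The calls were unevenly placed along the map. In steps of 2.5 map units, 1 of 74 transcripts was called from 35 to 37.5 (1.35%), 3 of 38 from 37.5 to 40 (7.89%), 4 of 31 from 42.5 to 45 (12.9%) and 9 of 200 from 45 to 47.5 (4.5%). No transcript of 86 was called from 47.5 to 50 by limma, with 10.5% of them below an unadjusted p of 0.05. Farther out the shares were 7 of 506 from 50 to 52.5 (1.38%) and 2 of 141 from 52.5 to 55 (1.42%), below the share on the rest of chromosome 3. The step from 40 to 42.5 holds 4 transcripts, of which 1 was called, and is too thinly filled to give a share. Between the called positions 46.88 and 50.50 lay 111 transcripts with no call, the smallest adjusted p among them being 0.0871. This stretch was picked as the widest gap between called positions, so it holds no call by that choice. At a background of 1.54%, few calls are to be found among 111 transcripts. From 45 to 47.5, 8 of the 9 calls were higher in vrs4.k. From 42.5 to 45, 3 of the 4 were lower. Over all transcripts most calls were lower too (363 of 466), so these 4 show no direction of their own. Against the mean of the other 3 introgression lines, averaged over stages, the step from 42.5 to 45 had 3 higher and 3 lower. In that comparison the step from 45 to 47.5 had 11 higher and 0 lower. The median log2 fold change of all transcripts in a step was 0.03 from 42.5 to 45 and 0.01 from 45 to 47.5, and -0.26 over the 4 transcripts of the thin step.

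**Figure D1:**
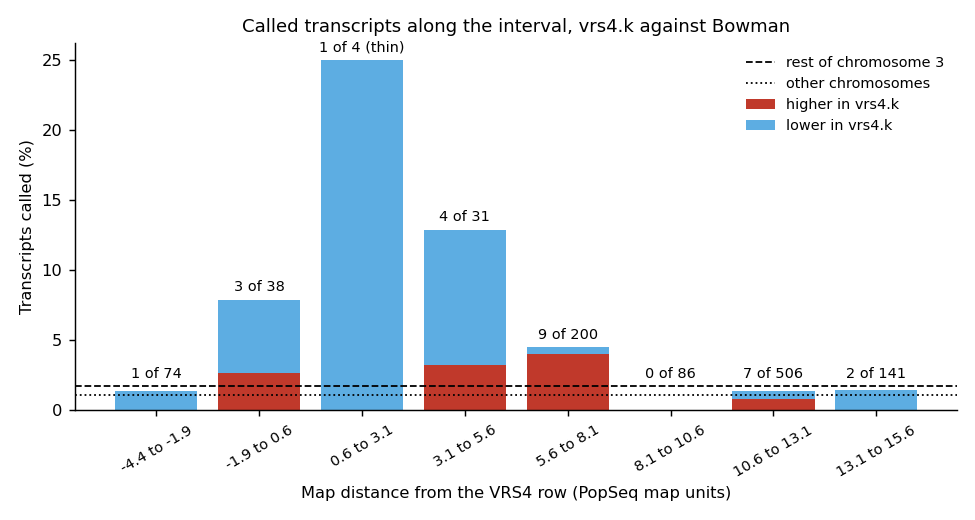
Share of transcripts called in vrs4.k against Bowman, averaged over both stages (y axis, percent), in steps of 2.5 PopSeq map units placed by their distance from the VRS4 row (x axis); red is higher and blue lower in vrs4.k, the numbers give called of tested, and the lines give the shares on the rest of chromosome 3 (dashed) and the other chromosomes (dotted). The steps with 3 of 38, 4 of 31 and 9 of 200 stand above both lines, and the step marked thin holds 4 transcripts.

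At the very position of AK373051, 10 other transcripts are mapped and 1 was called. AK357614, which matches ALG3, a mannosyltransferase that builds the lipid-linked sugar for N-glycosylation, fell in vrs4.k. At W5.5 it had 11.4, 12.8 and 12.9 TPM in vrs4.k, against 17.4, 16.8, 16.1 and 19 TPM in Bowman. At W3.5 it had 14.8, 13.6 and 12.3 TPM in vrs4.k, against 16.5, 17.7, 18.3 and 17.7 TPM in Bowman. All 6 vrs4.k libraries lay below all 8 Bowman libraries, and the log2 fold change was -0.40 ± 0.06 (limma's SE; adjusted p = 6.14e-05). The other lines were near Bowman, at 18.0 ± 0.8 TPM in int-a.1, 18.2 ± 1.4 TPM in vrs1 and 16.3 ± 0.7 TPM in int-c.5 (SD, n = 6 each). Its 9 neighbours at the same position were not called. They include AK250954.1 (SAE1A, a subunit of the SUMO-activating enzyme), at 65.5 ± 5.5 TPM in vrs4.k and 67.1 ± 8.0 TPM in Bowman, and AK371411 (NIK3, a receptor kinase), at 32.6 ± 3.4 TPM in vrs4.k and 34.1 ± 3.3 TPM in Bowman.

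Close by, MLOC_56579.1, a universal stress protein at 39.16, was higher in vrs4.k. It had 42.7, 45.6 and 39.7 TPM in vrs4.k at W5.5, against 28.2, 34.3, 31.5 and 34.2 TPM in Bowman, and 41, 54.2 and 34.5 TPM in vrs4.k at W3.5, against 22.5, 32.2, 17.8 and 35.1 TPM in Bowman. The groups were apart at W5.5 and overlapped at W3.5 (log2 fold change 0.55 ± 0.14, adjusted p = 0.0419). This call was lost in 11 of the 14 fits that each left out 1 vrs4.k or Bowman library, with adjusted p between 0.0117 and 0.121. On the other side, MLOC_52875.1, an oxidoreductase at 40.08, fell to 9.45 ± 1.88 TPM in vrs4.k, against 13.5 ± 0.8 TPM in Bowman (log2 fold change -0.49 ± 0.09, adjusted p = 0.00308). No vrs4.k library of either stage reached the lowest Bowman library of that stage. The amino acid transporter MLOC_67247.3 (BAT1, at 39.52) had 5.25 ± 1.23 TPM in vrs4.k and 3.67 ± 0.67 TPM in Bowman and was not called (adjusted p = 0.199).

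From 43 to 44.3 map units, a pair of low-confidence transcripts stood far from Bowman in vrs4.k. Both were chosen from their values, since the table gives them no informative match. MLOC_66685.1, at 43.09, had 46.1, 48.1 and 49.2 TPM in vrs4.k at W5.5, against 12.6, 20.9, 20.3 and 19.9 TPM in Bowman. At W3.5 it had 58.5, 49.6 and 41.5 TPM in vrs4.k, against 16.2, 12.7, 16.7 and 21.8 TPM in Bowman. The lowest vrs4.k library (41.5 TPM) was far above the highest Bowman library (21.8 TPM), and the log2 fold change was 1.44 ± 0.18 (adjusted p = 9.95e-06). The other lines averaged 19 ± 4.98 TPM in int-a.1, 19.45 ± 5.76 TPM in vrs1 and 13.2 ± 4.65 TPM in int-c.5. Beside it on the map, MLOC_66684.4, a high-confidence protein of unknown function with the preceding model number, had 5.28 ± 0.39 TPM in vrs4.k and 4.21 ± 0.91 TPM in Bowman and was not called (log2 fold change 0.29, adjusted p = 0.145). The third transcript at that position, MLOC_66686.1 (matching the silencing factor MOM1), had 4.23 ± 0.71 TPM in vrs4.k and 4.04 ± 0.66 TPM in Bowman.

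MLOC_57563.1, at 44.26, moved the other way and was barely detected in vrs4.k. It had 0.2, 0.4 and 0.6 TPM in vrs4.k at W5.5, against 6.4, 8.1, 5.8 and 10.3 TPM in Bowman. It had 0.2, 0.3 and 0 TPM in vrs4.k at W3.5, against 2.3, 4.5, 3.2 and 7.7 TPM in Bowman. No library of vrs4.k came near the lowest of any other line, and the log2 fold change was -2.37 ± 0.20 (adjusted p = 6.38e-09), on a scale that understates the change of low transcripts. The other lines had 6.35 ± 3.06 TPM in int-a.1, 5.82 ± 2.31 TPM in vrs1 and 4.67 ± 1.46 TPM in int-c.5. At the same map position, AK371600, which matches PDC2, a pyruvate decarboxylase of fermentation, fell to 4.03 ± 1.53 TPM in vrs4.k, against 8.09 ± 2.68 TPM in Bowman (log2 fold change -0.85 ± 0.18, adjusted p = 0.00816). Its groups were apart at W5.5 and overlapped at W3.5. A DEAD-box RNA helicase, MLOC_67808.1 at 43.91, fell to 15.0 ± 0.6 TPM in vrs4.k, against 18.2 ± 1.1 TPM in Bowman (log2 fold change -0.26 ± 0.04, adjusted p = 0.000761). Other RNA helicase models next to it showed no call: MLOC_72646.2 had 24.3 ± 1.8 TPM in vrs4.k and 24.6 ± 2.45 TPM in Bowman. With vrs4.k and Bowman alone in the fit, the calls of MLOC_67808.1 (adjusted p = 0.0802) and AK371600 (0.0875) were lost, as were those of MLOC_52875.1 (0.0566) and MLOC_66329.3 (0.142). CYP90D1-like MLOC_62829.1, a cytochrome P450 of brassinosteroid synthesis, had 1.82 ± 0.39 TPM in vrs4.k and 2.94 ± 1.21 TPM in Bowman and was not called (adjusted p = 0.287).

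At the dense positions 45.82 and 46.03, which hold 61 and 59 transcripts, 4 were called at each, and 7 of these 8 were higher in vrs4.k. MLOC_15614.2 matches IAR1, a ZIP-family metal transporter known from auxin-conjugate response in Arabidopsis. It had 2.9, 5.0 and 4.9 TPM in vrs4.k at W5.5, against 1.4, 1.2, 1.1 and 1.2 TPM in Bowman, and 5.1, 5.9 and 5.0 TPM in vrs4.k at W3.5, against 0.8, 1.1, 1.0 and 0.9 TPM in Bowman. The vrs4.k libraries were above all others of the series, and the log2 fold change was 1.46 ± 0.12 (adjusted p = 1.05e-08). MLOC_37205.1 matches POB1, a BTB-domain protein of the kind that brings targets to ubiquitin ligases. It had 6.2, 6.5 and 5.7 TPM in vrs4.k at W5.5, against 3.4, 4.3, 3.6 and 3.5 TPM in Bowman, and 5.9, 6.4 and 4.7 TPM in vrs4.k at W3.5, against 2.1, 3.4, 4.6 and 3.6 TPM in Bowman. The groups did not overlap at either stage, although the lowest vrs4.k and the highest Bowman library at W3.5 nearly met (log2 fold change 0.61 ± 0.11, adjusted p = 0.00147).

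Both models that match MSH7, a DNA mismatch repair protein, were higher in vrs4.k. MLOC_66329.3 averaged 14.6 ± 1.8 TPM in vrs4.k and 10.1 ± 2.3 TPM in Bowman (log2 fold change 0.51 ± 0.11, adjusted p = 0.0118), with the groups apart at both stages, though only just at W5.5. MLOC_64591.5, the low-confidence model, averaged 12.7 ± 2.9 TPM in vrs4.k and 8.84 ± 2.21 TPM in Bowman (log2 fold change 0.48 ± 0.12, adjusted p = 0.0475). The pair followed each other over the 32 libraries (Pearson's r = 0.90 on log2(TPM + 1), as a description), and near-identical models can share reads, so they may not be 2 independent observations. The call of the low-confidence model was lost in 9 of the 14 fits that each left out 1 library (adjusted p 0.0138 to 0.153). Among transcripts with no informative match, MLOC_25896.2 at 46.03 averaged 28.6 ± 3.7 TPM in vrs4.k and 16.3 ± 3.2 TPM in Bowman (log2 fold change 0.79 ± 0.12, adjusted p = 0.000116). MLOC_26201.1 averaged 7.20 ± 1.14 TPM in vrs4.k and 4.69 ± 0.68 TPM in Bowman, and AK373127 averaged 9.22 ± 1.46 TPM in vrs4.k and 6.25 ± 0.82 TPM in Bowman, both called higher. MLOC_13038.1 was the single called transcript of these positions that was lower, at 2.03 ± 0.30 TPM in vrs4.k and 3.41 ± 0.47 TPM in Bowman. Aurora kinase-like MLOC_62789.1, a mitotic kinase at 46.03, was not called, with 395 ± 19 TPM in vrs4.k and 346 ± 69 TPM in Bowman (adjusted p = 0.425).

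One interval transcript was listed at 0 in all 8 Bowman libraries and above 1 TPM in all 6 vrs4.k libraries. MLOC_74342.12, a low-confidence model at 46.88 annotated only as an expressed protein, had 2.6, 3.2 and 3.4 TPM in vrs4.k at W5.5 and 4.3, 5.1 and 2.9 TPM at W3.5. It was at 0 in every vrs1 and int-c.5 library, and in int-a.1 at 0 in 5 of 6 libraries with 0.9 TPM in W3.5 replicate 3. Its model number precedes that of MLOC_74343.2, the retrotransposon-like row at the same position that was left out. Among all 30174 transcripts, 9 had this pattern in vrs4.k, and no interval transcript had it in any other line. Every listed transcript reached 1 TPM in at least 3 libraries, so MLOC_74342.12 is listed through its vrs4.k libraries alone. Counts of such patterns depend on that limit. No interval transcript was at 0 in all vrs4.k libraries and above 1 TPM in all Bowman libraries. A fold change is not given, since Bowman was at 0.

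**Figure D2:**
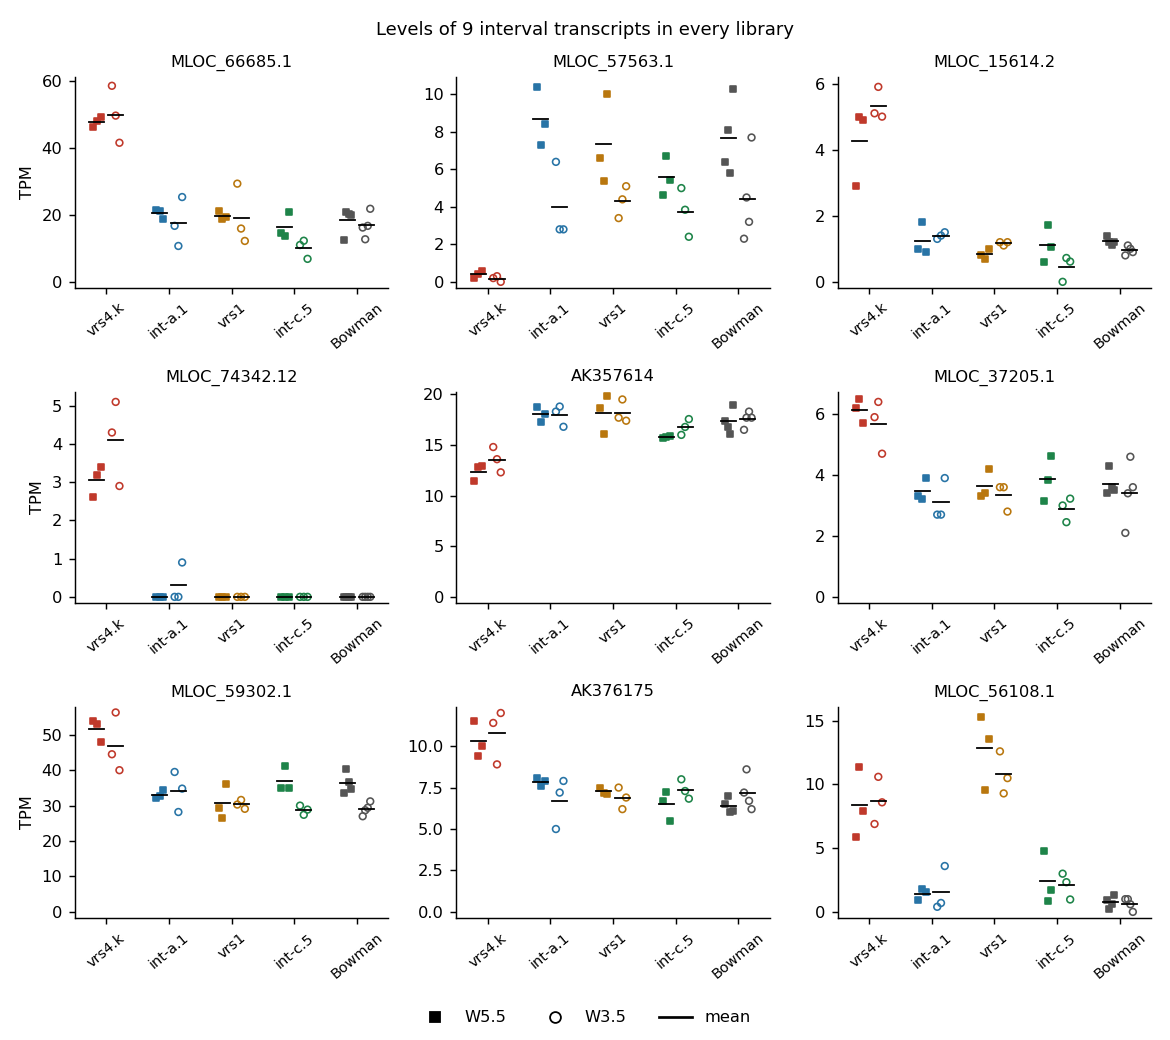
Levels (TPM, y axes from 0) of 9 interval transcripts in every library, by line (x axes); filled squares are W5.5, open circles W3.5 and bars group means, with 3 libraries per line and stage and 4 for Bowman. All 9 are among the 18 of the 27 vrs4.k calls whose libraries overlap Bowman's at neither stage, so the separation in every panel follows from that choice. MLOC_56108.1 was high in vrs1 as well.

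From 50.50 to 52.62, 9 transcripts differed in vrs4.k, 4 higher and 5 lower. MLOC_59302.1, an exonuclease of the ribonuclease H-like class at 51.20, had 53.8, 53 and 48.1 TPM in vrs4.k at W5.5, against 33.7, 40.3, 36.6 and 34.8 TPM in Bowman. At W3.5 it had 44.5, 56.3 and 40 TPM in vrs4.k, against 27, 28.7, 29.4 and 31.2 TPM in Bowman. The groups did not overlap at either stage (log2 fold change 0.58 ± 0.08, adjusted p = 5.61e-05). AK376175, a ubiquitin-like protein at 51.63, had 11.5, 9.4 and 10.0 TPM in vrs4.k at W5.5, against 6.5, 7.0, 6.0 and 6.1 TPM in Bowman, and 11.4, 8.9 and 12 TPM in vrs4.k at W3.5, against 7.2, 8.6, 6.7 and 6.2 TPM in Bowman. Again no vrs4.k library fell within the Bowman range of its stage (log2 fold change 0.57 ± 0.09, adjusted p = 0.000218). The retrotransposon-like MLOC_81412.3 at 51.20 fell to 5.03 ± 0.81 TPM in vrs4.k, against 8.54 ± 1.71 TPM in Bowman (log2 fold change -0.65 ± 0.12, adjusted p = 0.00142). AK365152, which matches TRB1, a telomere repeat-binding protein with a Myb and a histone-like domain, was the single regulator called: it averaged 12.8 ± 1.0 TPM in vrs4.k and 10.3 ± 1.3 TPM in Bowman (log2 fold change 0.29 ± 0.07, adjusted p = 0.0312). Its call was lost in 7 of the 14 fits that each left out 1 library (adjusted p 0.00849 to 0.0958), and without the 4 libraries that lay apart its log2 fold change was 0.20 (adjusted p = 0.111).

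MLOC_56108.1, a low-confidence transcript at 51.63 without a match, was higher in both vrs4.k and vrs1. At W5.5 it had 5.9, 11.4 and 7.9 TPM in vrs4.k, against 0.9, 0.2, 0.6 and 1.3 TPM in Bowman, and at W3.5 it had 6.9, 10.6 and 8.6 TPM in vrs4.k, against 1.0, 1.0, 0.6 and 0 TPM in Bowman. Over both stages the lowest, median and highest of the 6 libraries were 9.3, 11.55 and 15.3 TPM in vrs1. The log2 fold change was 2.51 ± 0.26 in vrs4.k (adjusted p = 4.19e-07) and 2.94 ± 0.26 in vrs1 (adjusted p = 4.08e-08), both against the same Bowman libraries. In int-a.1 it averaged 1.5 ± 1.16 TPM and in int-c.5 2.27 ± 1.48 TPM, and neither was called.

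The size of the differences was modest. Of the 27 calls in vrs4.k, 6 exceeded a 2-fold change on the log2(TPM + 1) scale (22.2%), against 196 of all 466 calls (42.1%), and the median absolute log2 change was 0.65, against 0.85 for all calls. Low-confidence models gave 16 of the 27 calls (3.15% of 508) and high-confidence models 11 (1.92% of 572). In the whole table these shares were 2.28% of low-confidence and 0.674% of high-confidence models. The 6 vrs4.k libraries lay outside the Bowman range at both stages for 18 of the 27. The same libraries gave the calls, and the share among all 466 calls was not counted, so this is not a trait of the interval.

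At single stages, vrs4.k differed from Bowman in 11 interval transcripts at W5.5 (1.02%, 8 higher and 3 lower) and 12 at W3.5 (1.11%, 9 higher and 3 lower). The background was 0.696% at W5.5 (0.146% higher and 0.55% lower) and 0.653% at W3.5 (0.172% higher and 0.481% lower). With libraries weighted by limma's array weights (library weights), the counts were 10 higher and 10 lower at W5.5 and 54 higher and 28 lower at W3.5. With vrs4.k and Bowman alone in the fit they were 4 higher and 1 lower at W5.5 and 4 higher and 0 lower at W3.5. Without the 4 libraries that lay apart, 8 were higher and 8 lower at W5.5. Both stages shared 10 calls, all 10 in the same direction, which is 90.9% of the W5.5 calls and 83.3% of the W3.5 calls. They are MLOC_74342.12, MLOC_56108.1, MLOC_15614.2, MLOC_66685.1, MLOC_25896.2, MLOC_59302.1 and AK376175, which were higher in vrs4.k, and MLOC_57563.1, AK357614 and MLOC_67808.1, which were lower. Because MLOC_74342.12 is listed through its vrs4.k libraries alone, its calls are no independent support. The share of calls common to both stages was not counted over all transcripts, so it does not set the interval apart. In the 7 fits per stage that each left out 1 library, MLOC_67808.1 lost its call in 6 at either stage. At W5.5 MLOC_59302.1 lost it in 6, MLOC_25896.2 in 5 and AK376175 in 1, and at W3.5 AK357614 and AK376175 lost it in 5 each and MLOC_25896.2 in 1. AK373127 was called at W5.5 alone (log2 fold change 0.61, adjusted p = 0.0171), and lost its call in 6 of 7 such fits. Both MSH7 models were called at W3.5 alone (0.71 and 0.80, adjusted p = 0.0252 and 0.0226), and lost it in 4 of 7 each. Calling at 1 stage does not show a difference between stages: the test of that difference, the line by stage interaction, called 0 interval transcripts in limma (smallest adjusted p 0.753, 61 below an unadjusted p of 0.05) and 0% of all transcripts. Averaging over stages added 14 transcripts that neither stage called. Over the 1080 transcripts, the vrs4.k log2 fold changes of both stages, which share no library, followed each other with Pearson's r = 0.42 and Spearman's rho = 0.24, and over all transcripts with r = 0.34.

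**Figure D3:**
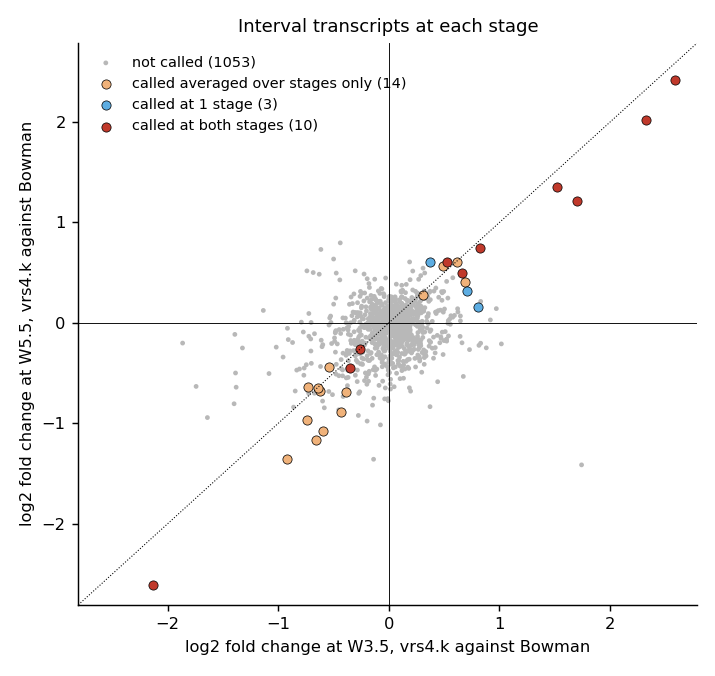
Log2 fold change of vrs4.k against Bowman at W5.5 (y axis) and at W3.5 (x axis) for each of the 1080 interval transcripts, coloured by the stages at which it was called; the dotted line marks equal change. The 10 transcripts called at both stages lie on the same side of 0 on each axis.

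Set against the mean of the other 3 introgression lines in place of Bowman, vrs4.k differed in 11 interval transcripts at W5.5 (7 higher, 4 lower; 12 and 3 under quantile normalization), with 0.54% of all transcripts called, and in 13 at W3.5 (10 higher, 3 lower), with 0.401% called. At W3.5 the split was 5 higher and 4 lower without the 4 libraries that lay apart, 4 and 1 with the compared groups alone, and 126 and 89 with library weights. At W5.5 it was 7 and 6, 7 and 5, and 17 and 11 under the same settings. Averaged over stages, which was not planned at the outset, 26 were called (20 higher, 6 lower; 2.41%), with 0.941% of all transcripts called, 14 of 1370 on the rest of chromosome 3 and 74 of 14797 on the other chromosomes. From 45 to 47.5, 11 of 200 were called and all 11 were higher in vrs4.k. Several were called in this comparison and not against Bowman. MLOC_66684.4, the neighbour of MLOC_66685.1, averaged 5.28 ± 0.39 TPM in vrs4.k, with 3.63 ± 0.44 TPM in int-a.1, 3.78 ± 0.34 TPM in vrs1 and 3.47 ± 0.59 TPM in int-c.5 (log2 difference 0.45 ± 0.08, adjusted p = 0.00167). MLOC_61197.1, a dienelactone hydrolase-like enzyme at 43.13, averaged 132 ± 5 TPM in vrs4.k, with 109 ± 6 TPM in int-a.1, 112 ± 4 TPM in vrs1, 110 ± 6 TPM in int-c.5 and 115 ± 10 TPM in Bowman (log2 difference from the 3 lines 0.25 ± 0.05, adjusted p = 0.00293). MLOC_73617.2 at 52.69, which matches the GRAS-family gibberellin repressor GAI, averaged 10.7 ± 0.9 TPM in vrs4.k, with 8.35 ± 0.52 TPM in int-a.1, 9.35 ± 0.52 TPM in vrs1 and 8.29 ± 0.88 TPM in int-c.5 (log2 difference 0.28 ± 0.06, adjusted p = 0.0243). These 3 transcripts were chosen from their values. This comparison and that with Bowman share the vrs4.k libraries.

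In int-a.1, 9 were called over both stages (0.833%, 1 higher and 8 lower), below the 2.13% of all transcripts, and all 9 were low-confidence models. At W5.5 it had 5 calls (1 higher, 4 lower; background 0.709%) and at W3.5 it had 5 (all lower; background 0.653%). The clearest was MLOC_51638.1 at 51.77, without a match, with 14.5, 25.9 and 20.4 TPM in the W5.5 libraries of int-a.1, against 37, 57.6, 52.7 and 54.1 TPM in those of Bowman, and 24, 18 and 18.8 TPM in the W3.5 libraries of int-a.1, against 38.6, 49.3, 63.4 and 36.9 TPM in Bowman. The groups did not overlap (log2 fold change -1.22 ± 0.16, adjusted p = 1.55e-05), and vrs4.k, at 39.4 ± 8.3 TPM, was nearer to Bowman. MLOC_30660.1 at 50.78 fell to 1.98 ± 1.24 TPM in int-a.1, against 8.05 ± 2.88 TPM in Bowman (log2 fold change -1.59 ± 0.31, adjusted p = 0.00347), although its highest int-a.1 library (4.2 TPM) was above the lowest Bowman library (1.7 TPM). MLOC_55500.1 at 46.03, which matches the transcription factor WRKY13, averaged 8.80 ± 2.39 TPM in int-a.1, 10.4 ± 3.9 TPM in vrs1 and 14.6 ± 3.6 TPM in Bowman. It was called in int-a.1 over both stages (log2 fold change -0.67 ± 0.14, adjusted p = 0.00868) and in vrs1 at W3.5 (-0.94 ± 0.20, adjusted p = 0.0274), and both lines overlapped Bowman in level. The vrs1 call was lost in 6 of the 7 fits that left out 1 library (adjusted p up to 0.173), and without the 4 libraries that lay apart. The single higher transcript in int-a.1 was MLOC_2517.3 at 51.20, at 114 ± 15 TPM in int-a.1 and 85.1 ± 15.2 TPM in Bowman (log2 fold change 0.43, adjusted p = 0.0172). Without the 4 libraries that lay apart, 27 interval transcripts were called in int-a.1, and without Bowman W3.5 replicate 4 alone, 21. With library weights the count was 96 in int-a.1 and 92 in vrs4.k over both stages, and 77 in int-a.1 and 82 in vrs4.k at W3.5. Without the shares of all transcripts under these settings, such counts cannot be read as a result about the interval.

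In vrs1, 3 interval transcripts were called over both stages (0.278%, 2 higher and 1 lower), against 0.497% of all transcripts. At W5.5 it had 1 call (background 0.325%) and at W3.5 it had 2 (background 0.341%). Besides MLOC_56108.1, they were MLOC_26580.1 at 37.61, at 18.2 ± 2.7 TPM in vrs1 and 11.3 ± 3.3 TPM in Bowman (log2 fold change 0.68 ± 0.15, adjusted p = 0.0245), and MLOC_78430.1 at 45.82, at 1.92 ± 0.85 TPM in vrs1 and 5.67 ± 2.56 TPM in Bowman (-1.14 ± 0.25, adjusted p = 0.0236). MLOC_78430.1 was also lower in int-a.1, at 1.97 ± 1.39 TPM (-1.21 ± 0.25, adjusted p = 0.00563). Neither has an informative match, and like the int-a.1 transcripts they fall outside the naming rule and were picked from their values. In int-c.5, limma called 0 interval transcripts over both stages, against 0.345% of all transcripts, 0 at W5.5 (background 0.106%) and 0 at W3.5 (background 0.0994%), with 107, 38 and 89 below an unadjusted p of 0.05.

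**Figure D4:**
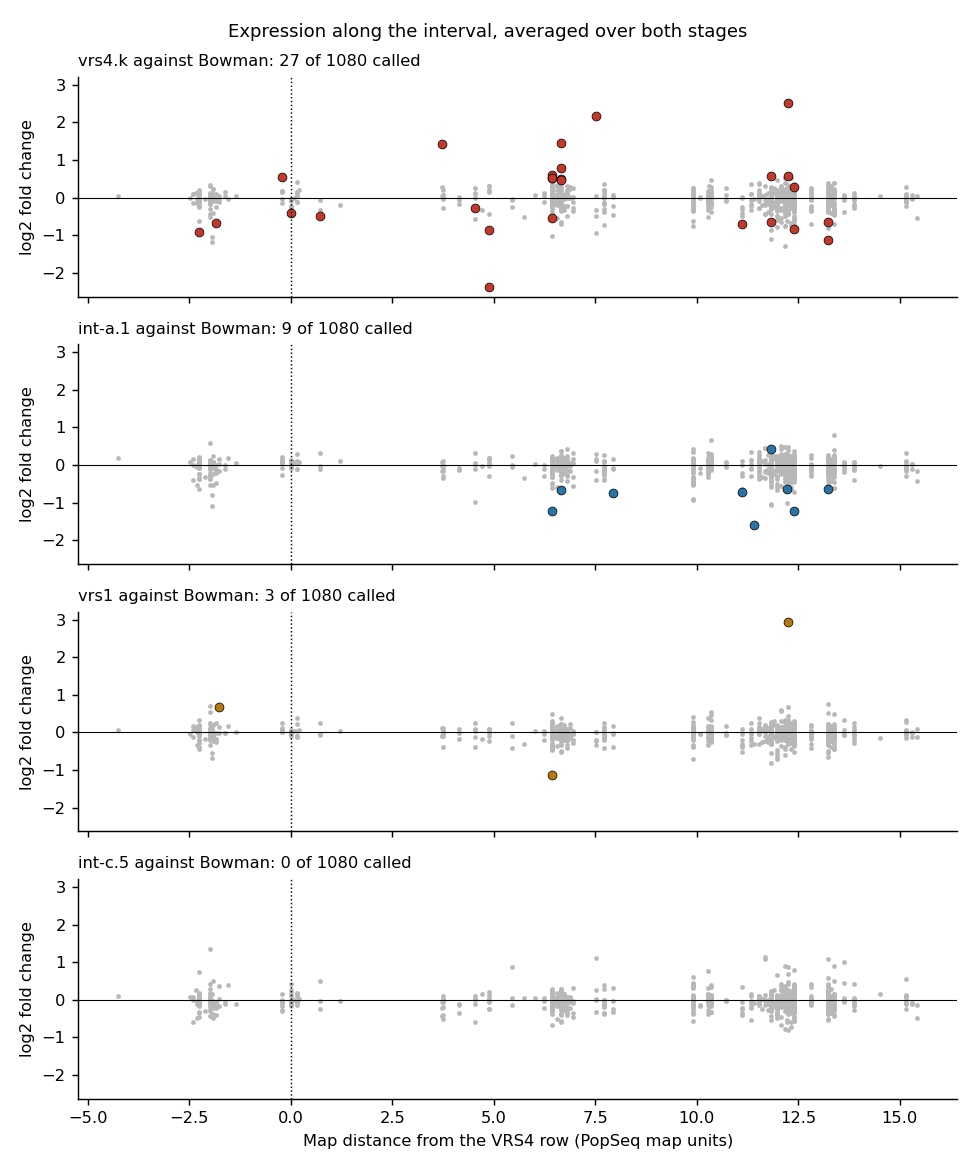
Log2 fold change against Bowman, averaged over both stages (y axes), of each of the 1080 interval transcripts at its distance from the VRS4 row in PopSeq map units (x axis; dotted line at 0), in vrs4.k, int-a.1, vrs1 and int-c.5; coloured points are called and grey points are not. Most grey points lie within 1 of 0 in every line, and the 27 called in vrs4.k lie between map positions 37.11 and 52.62.

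By function, no group of interval transcripts held more than 1 called in vrs4.k. The groups were found by key words in the table's own match descriptions, and 340 of the 1080 fell into at least 1 of 14. A group can therefore hold transcripts of other functions: the hormone group includes MLOC_57826.1, a late embryogenesis abundant protein. Among 65 transcripts of the regulator group, 1 was called (AK365152, higher) and the median log2 fold change was 0.01, against 20 of 1593 called and a median of 0.01 in the whole table. Their extremes were LZF1-like MLOC_19814.1, a B-box zinc finger, at -0.39, and HB17-like MLOC_55339.1, a homeodomain-leucine zipper factor, at 0.39, neither called. Of 38 transposon-like transcripts 1 was called (MLOC_81412.3, lower), with a median of -0.02, against 31 of 1386 and -0.07 in the whole table. Of 52 RNA-processing transcripts 1 was called (MLOC_67808.1, lower), against 26 of 989 in the whole table (2.63%). Of 40 in the ubiquitin group 1 was called (AK376175, higher), against 6 of 1173 (0.512%), and of 20 transporters 1 (MLOC_15614.2, higher), against 4 of 747 (0.535%). Of 13 chromatin transcripts 1 was called (again AK365152), the single call among 463 in the whole table. In the remaining 8 groups limma called 0, with the number below an unadjusted p of 0.05 given here for each: 2 of 62 kinases and phosphatases, 6 of 29 photosynthesis and plastid, 8 of 24 translation, 1 of 19 hormone, 4 of 17 cell cycle, 0 of 11 chaperone, 2 of 9 cell wall and 0 of 5 immune receptor transcripts. Of all transcripts, 12.3% were below that unadjusted p. In the whole table the called shares of these groups, in the same order, were 1.31%, 0.979%, 0.609%, 1.84%, 0%, 0.373%, 0.455% and 1.34%. Such low shares leave few calls to be found in groups of this size. The group medians lay between -0.12 for immune receptors, against -0.10 in the whole table, and 0.11 for the cell cycle, against 0.07 in the whole table.

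Some wide differences in mean were not called. Histone H2B-like MLOC_76747.1, a core nucleosome protein at 50.71, averaged 927 ± 25 TPM in vrs4.k and 754 ± 203 TPM in Bowman (log2 fold change 0.35, adjusted p = 0.392). Drought-induced MLOC_57826.1, a late embryogenesis abundant protein at 51.20, averaged 94.5 ± 20.9 TPM in vrs4.k and 231 ± 202 TPM in Bowman (-0.85, adjusted p = 0.431). The spread between Bowman libraries was wide for both.

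Between stages, Bowman itself showed 0 called interval transcripts at W5.5 against W3.5 in limma (0% of all; smallest adjusted p 0.0667, 237 below an unadjusted p of 0.05). Without the 4 libraries that lay apart, 112 were called (77 higher, 35 lower), without Bowman W3.5 replicate 4 alone 9, without Bowman W3.5 replicate 3 alone 2, and with library weights 44. Averaged over the 5 lines, likewise a later addition, 178 of the 1080 differed (16.5%), 125 higher and 53 lower at W5.5, against 16.6% of all transcripts. Without the 4 libraries that lay apart the count was 408. Those 4 were picked for lying toward the other stage, so leaving them out favours calls between stages. The counts of 112 and 408 are therefore no independent check. AK363414 at 51.77, which matches XH/XS-domain proteins that act in RNA-directed DNA methylation in Arabidopsis, was higher at W5.5 (log2 fold change 1.57 ± 0.26, adjusted p = 0.00121). It averaged 20.3 ± 7.8 TPM at W5.5 and 14.9 ± 15.9 TPM at W3.5 in vrs4.k, and 24.6 ± 9.1 TPM at W5.5 and 6.80 ± 6.05 TPM at W3.5 in Bowman (SD, n = 3 and 4 per stage). The W3.5 libraries of vrs4.k ran from 5.1 to 33.2 TPM. The Dof zinc finger MLOC_72432.1 at 45.82 was higher too (1.06 ± 0.20, adjusted p = 0.00277), and in vrs4.k it averaged 1.83 ± 1.17 TPM at W5.5 and 1.87 ± 1.65 TPM at W3.5, with 3.08 ± 1.69 TPM at W5.5 and 0.775 ± 0.974 TPM at W3.5 in Bowman. The ABC transporter MLOC_52111.1 (MRP3-like, at 47.10) was lower at W5.5 (-0.58 ± 0.19, adjusted p = 0.0377), with 10.9 ± 2.4 TPM at W5.5 and 16.7 ± 1.7 TPM at W3.5 in vrs4.k and 10.05 ± 2.07 TPM at W5.5 and 10.6 ± 1.95 TPM at W3.5 in Bowman. GNAT acetyltransferase-like AK353959 at 52.62 was lower as well (-0.40 ± 0.11, adjusted p = 0.0217). Under quantile normalization the split was 67 higher and 123 lower, and under upper-quartile scaling 83 higher and 89 lower, so the balance of directions between stages depended on the scaling.

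In the authors' deposited table, 26 interval transcripts had a false discovery rate below 0.05 for vrs4.k overall (2.41%, 18 higher and 8 lower), against 1.30% of all transcripts. The authors' deposited table gave 10 for int-a.1 (0.926%, against 1.65% of all transcripts), 3 for vrs1 (0.278%, against 0.454%) and 0 for int-c.5 (against 0.278%).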

How the data were processed

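The authors' deposited table holds 32 libraries. Per the file headers the values are raw counts, but they carry decimals and each library has nearly the same total, so they were taken as the authors' TPM. In 1 library, int-c.5 W3.5 replicate 1, the deposited values are TPM rounded to whole numbers, treated as a score on the same scale. The authors' own log2 fold changes and false discovery rates (adjusted p-values) were also deposited and are used only where named. BWA, GATK, Salmon and limma appear in the submitters' processing notes without versions or roles. No source used here gives the strand setting, and near-identical or overlapping models may share reads.

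Levels were transformed to log2(TPM + 1) and fitted with limma 3.58.1 (R 4.3.3) over all libraries in 10 line-by-stage groups without covariates, with Benjamini-Hochberg adjustment over 30174 transcripts and a threshold of 0.05. The fit was first tested on simulated data. Standard errors are limma's, and SDs are between libraries.

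By rule, the text names for vrs4.k up to 15 highest and 15 lowest called transcripts with an informative match whose libraries overlap Bowman's at neither stage, and any called high-confidence regulator. That gave 10 transcripts, and the rest were picked from their values. The members and lists were chosen with earlier results of these data known. Alternatives varied the pseudocount, filter, scaling, samples, weights, threshold, model class and map window.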

Additional observations from a re-analysis of the deposited data

Results flagged for a closer look

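In 8 of 106 groups of 4 Bowman libraries, tested over 53 interval transcripts, a single library lay far from the rest by Dixon's test, which chance does in about 1 group in 20. At W5.5 these were MLOC_52875.1 (14.9 TPM, the nearest library 13.2), MLOC_66685.1 (12.6 TPM, nearest 19.9), MLOC_26201.1 (4 TPM, nearest 4.7), AK373127 (7.7 TPM, nearest 6) and MLOC_44246.6 (8.9 TPM, nearest 8.1). At W3.5 they were MLOC_13038.1 (3.7 TPM, nearest 3), MLOC_14184.1 (8.2 TPM, nearest 6.5) and MLOC_40917.1 (9.4 TPM, nearest 6.3). Only Bowman has 4 libraries per stage, so no other line could be tested this way.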

How the results depend on the processing

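Counts of called interval transcripts changed with the settings, and no single call changed direction in any alternative run: of 3072 single-transcript values under alternatives, 2585 kept their call, 487 lost it and 0 reversed. The cause was not tested. Sets of 3 counts below are for W5.5, W3.5 and both stages. They are counts of interval transcripts alone, without the share over all transcripts under the same setting. Library weights (limma's array weights) gave, against Bowman, 20 calls at W5.5, 82 at W3.5 and 92 over both stages in vrs4.k, 11, 77 and 96 in int-a.1, 3 at W5.5 in vrs1, and 2 at W5.5 and 11 over both stages in int-c.5; against the other 3 lines, vrs4.k had 28, 215 and 147. They gave 552 calls between stages over all lines and 44 in Bowman. Fitting the compared groups alone gave 5, 4 and 17 in vrs4.k, 1, 0 and 4 in int-a.1, 1 at W3.5 in vrs1, and 5 at W3.5 for vrs4.k against the other lines. A threshold of 0.01 gave 6, 7 and 15 in vrs4.k, 1 and 1 at single stages in int-a.1, 1 at W3.5 and 1 over both stages in vrs1, and 29 between stages. High-confidence models alone gave 5, 5 and 11 in vrs4.k, 0 in each int-a.1 and vrs1 comparison, 5, 6 and 13 for vrs4.k against the other lines, and 109 between stages. Positions 35 to 50 alone gave 1, 1 and 3 in int-a.1, 0 at W5.5 and 1 at W3.5 in vrs1, and 78 between stages. Without the 4 libraries apart there were 9, 3 and 27 calls in int-a.1, 2 at W5.5 and 1 at W3.5 in vrs1, 408 between stages and 112 in Bowman. Those 4 were picked for lying toward the other stage, which favours the counts between stages and in Bowman. A pseudocount of 5 gave 2 at W5.5 in vrs1, and quantile normalization 1 over both stages in int-c.5.

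Leaving out 1 library at a time gave, in the same order, 6 to 11, 8 to 14 and 18 to 37 in vrs4.k (37 without Bowman W3.5 replicate 4), 1 to 5, 1 to 8 and 7 to 21 in int-a.1, 1 to 2, 1 to 2 and 1 to 4 in vrs1, and 0 to 0, 0 to 1 and 0 to 3 in int-c.5. Against the other 3 lines vrs4.k had 7 to 11, 8 to 15 and 20 to 28. Between stages there were 97 calls without vrs4.k W3.5 replicate 3 and 268 without vrs4.k W3.5 replicate 2, and in Bowman 0 to 9, the 9 without Bowman W3.5 replicate 4. The interaction had 0 calls throughout. Of the 27 vrs4.k calls, 12 were kept under every alternative and 16 in all 14 fits that left out 1 library. The filter of 1 TPM in 3 libraries removed nothing. No paired analysis was possible because the labels carry library letters and the table's columns only a line, a stage and a replicate, so no shared number ties libraries of different groups.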
